A study of Homo sapiens with 6 samples.

Results

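The genes described here encode the subunits of the mitochondrial respiratory chain that are read from the nuclear genome, taken complex by complex. They are the protein-coding genes of the counts table whose symbols name subunits of complex I (NDUFA, NDUFB, NDUFC, NDUFS and NDUFV with a number), complex II (SDHA to SDHD), complex III (UQCR genes and CYC1), complex IV (COX5 to COX8 genes) and complex V (ATP5F, ATP5M and ATP5P genes). The choice used names only and gave 84 of the 28395 genes in the table: 36 for complex I, 4 for complex II, 10 for complex III, 15 for complex IV and 19 for complex V. The cells were TC28a2, an immortalised human chondrocyte line, transfected either with a vector for overexpression of FAP (fibroblast activation protein, a protease on the cell surface; 3 samples) or with a control vector (3 samples). RNA was taken 48 hours after transfection and sequenced as DRUG-seq libraries, a multiplexed form of RNA sequencing. Neither the vector's promoter nor the share of cells that took it up is stated in the sources used here. Nor is it stated whether replicates were separate cultures. The p-values therefore measure only how much these samples vary, which may be technical.

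In the respiratory chain, complex I takes electrons from NADH and complex II from succinate, and both pass them to ubiquinone. Complex III carries them on to cytochrome c and complex IV to oxygen, while complex V, the ATP synthase, uses the resulting proton gradient to make ATP. Most subunits are nuclear genes translated in the cytosol, and a few, including the catalytic subunits of complex IV, are encoded by mitochondrial DNA. Chondrocytes live in poorly oxygenated cartilage and are known for relying strongly on glycolysis.

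Library totals ran from 5736056 to 13839743 gene counts, and the mean totals of the groups did not differ beyond the spread between samples (exact permutation test, two-sided, p = 0.5, where 0.1 is the lowest this design allows). FAP itself was at 223, 225 and 351 CPM (counts scaled to the TMM-adjusted library size) in FAP libraries and at 0, 1.20 and 0.396 CPM in control libraries, so every library matched its label. FAP replicate 3 stood apart from the other FAP replicates, with a chi-square per degree of freedom of 17.5 against replicate 1 and 16.7 against replicate 2, where FAP replicates 1 and 2 gave 6.06 and control pairs 5.5 to 7.23. Of 10 chondrocyte markers only SOX9 passed the low-count filter, and ACAN and COL2A1, the cartilage matrix genes, were at no more than 1.64 CPM in any library. Among markers of other cells, all 7 fibroblast, 1 of 4 endothelial, 2 of 4 leukocyte and no epithelial markers passed the low-count filter. None of those that passed was called, and the others could not be tested. The fibroblast marker COL1A1 stood at 581.5, 666 and 733.5 CPM in FAP libraries and 433.8, 660.6 and 679.5 CPM in control libraries. The leukocyte marker CD14 was low, at 1.596, 1.341 and 1.112 CPM in FAP libraries and 0.9133, 0.437 and 0.9498 CPM in control libraries. Every FAP library lay above all controls (log2 fold change 0.779, adjusted p = 0.659). CD68, the other leukocyte marker tested, was at 14.04, 16.94 and 15.86 CPM in FAP libraries and 16.44, 16.93 and 15.04 CPM in control libraries. Its groups overlapped (log2 fold change -0.0321, adjusted p = 0.967). The endothelial gene PECAM1 stood at 1.92, 1.41 and 1.78 CPM in FAP libraries and 0.183, 0.437 and 0.712 CPM in control libraries (log2 fold change 1.74, adjusted p = 0.293), while CDH5, another endothelial marker, was at 0 in all 6, and their part in the results was not tested. Members took 1.67% to 1.80% of the counts in FAP libraries and 1.73% to 1.80% in control libraries.

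No respiratory chain gene was called changed in FAP libraries (edgeR quasi-likelihood test, Benjamini-Hochberg adjusted p under 0.05), and the differences were small. Of the 84 genes, 77 passed the low-count filter, and 0 of these 77 were called, where 0.224% of all 13373 genes tested were called (30 genes, 13 higher and 17 lower, FAP included). Scaling by library totals alone gave 13 higher and 6 lower calls over all genes. DESeq2 and limma-voom called 0 members as well. At an unadjusted p under 0.05, 8 members (10.4%) were lower, where 5.3% of all genes were, and 2 (2.60%) were higher, where 4.61% of all genes were. The smallest adjusted p of a member was 0.136, and the median standard error of a member's log2 fold change was 0.10. The number called moved with 1 library and with the filter: without FAP replicate 3, 4 members were called (ATP5F1E and NDUFA1 lower, NDUFS7 and ATP5F1C higher), where 1.86% of 13305 genes were called. Without a low-count filter 2 members were called (ATP5F1E lower and NDUFS7 higher), where 0.718% of 21180 genes were. In bulk RNA, fewer transcripts per cell and fewer cells that make them cannot be told apart.

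More members lay below zero than above, and the complexes differed in how many. Over all 77 tested members 50 log2 fold changes were negative (64.9%), where 49.3% of all genes had a negative value, and the median was -0.07, against 0.00 over all genes. Leaving out FAP replicate 1 gave a median of -0.10, and leaving out FAP replicate 3 gave -0.04. By complex the median was -0.06 in complex I (23 of 36 negative; -0.10 without FAP replicate 1 and -0.02 without FAP replicate 3), 0.05 in complex II (1 of 4), -0.02 in complex III (5 of 10), -0.12 in complex IV (9 of 10) and -0.11 in complex V (12 of 17). In 13 members (16.9%) all 3 FAP libraries lay below all 3 control libraries, where 7.99% of all genes did, and in 5 (6.49%) they lay above, where 7.96% of all genes did. Of the 15 subunits listed as core catalytic 6 were negative, with a median of 0.02, and of the other 62 tested members 44 were (71.0%), with a median of -0.10. The 2 sets also differed in median length of the longest annotated transcript, 2528 bases in the core list and 1296 bases in the others. The part of length in this contrast was not tested. The counts of separated groups depended on the processing: when each library was corrected for length and GC content of transcripts, 7 members lay below and 10 above, where 7.92% of all genes lay below and 7.75% above. With library totals 9 members lay below and 11 above, and the shares of all genes moved as well, to 5.26% below and 11.1% above. Under library totals the complex III median turned to 0.03 and that of all members was -0.01, where the median of all genes was 0.06. With the correction for length and GC content the complex III median was 0.01 and the complex IV median -0.07.

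The level summed over each complex overlapped between groups in all 5 complexes. Complex IV had the lowest FAP level relative to controls, with sums of 3268, 2846 and 2941 CPM in FAP libraries and 3310, 3424 and 3121 CPM in control libraries. Its mean in FAP libraries was 91.9% of that in control libraries (3018 ± 222 and 3285 ± 153 CPM, SD, n = 3 each). FAP replicates 2 and 3 lay below every control, and FAP replicate 1 lay above control replicate 3. Complex I summed to 6904, 6488 and 6083 CPM in FAP libraries and 6983, 7132 and 6475 CPM in control libraries, or 94.6% of the control mean. Complex V stood at 4372, 3968 and 4077 CPM in FAP libraries and 4450, 4486 and 4232 CPM in control libraries, or 94.3%, with FAP replicates 2 and 3 below every control as in complex IV. Complex III reached 96.9% and complex II 101%. Sums are shares of a library's counts, not numbers of complexes.

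**Figure D1:**
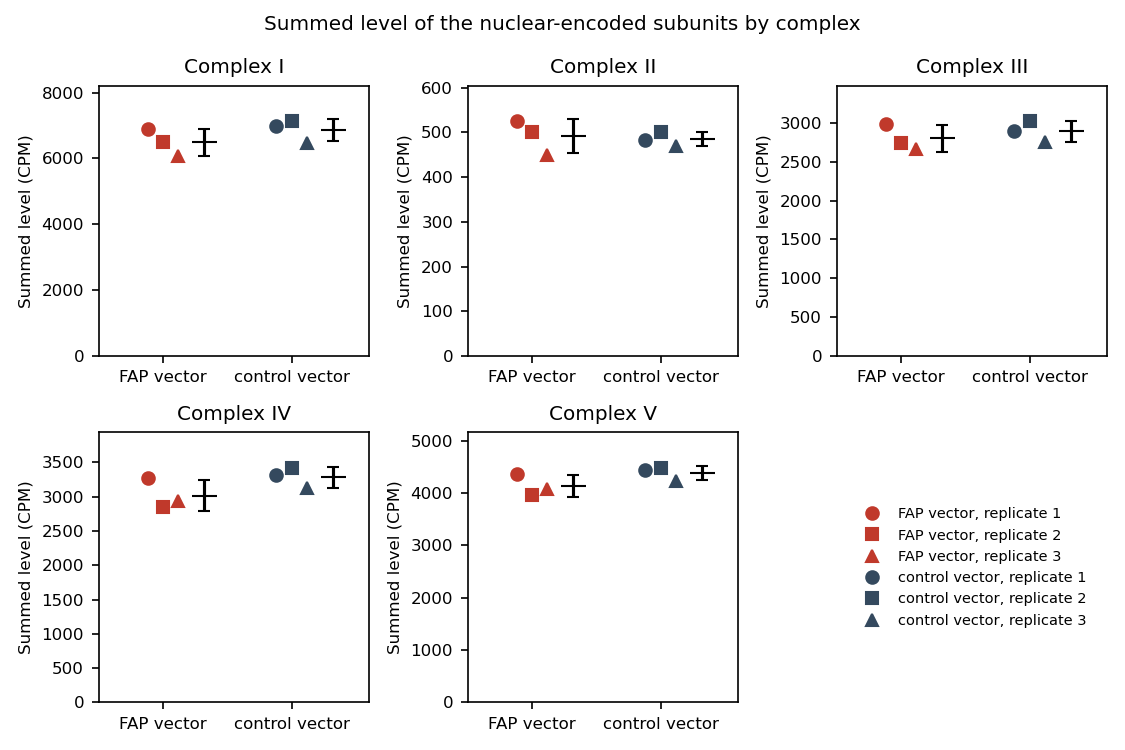
Summed level in CPM of the nuclear-encoded subunits of each complex in every library. Symbols mark replicates, and the dash with bars gives mean ± SD of 3 libraries. In complex IV the FAP libraries lie at 3268, 2846 and 2941 CPM and the control libraries at 3310, 3424 and 3121 CPM.

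**Figure D2:**
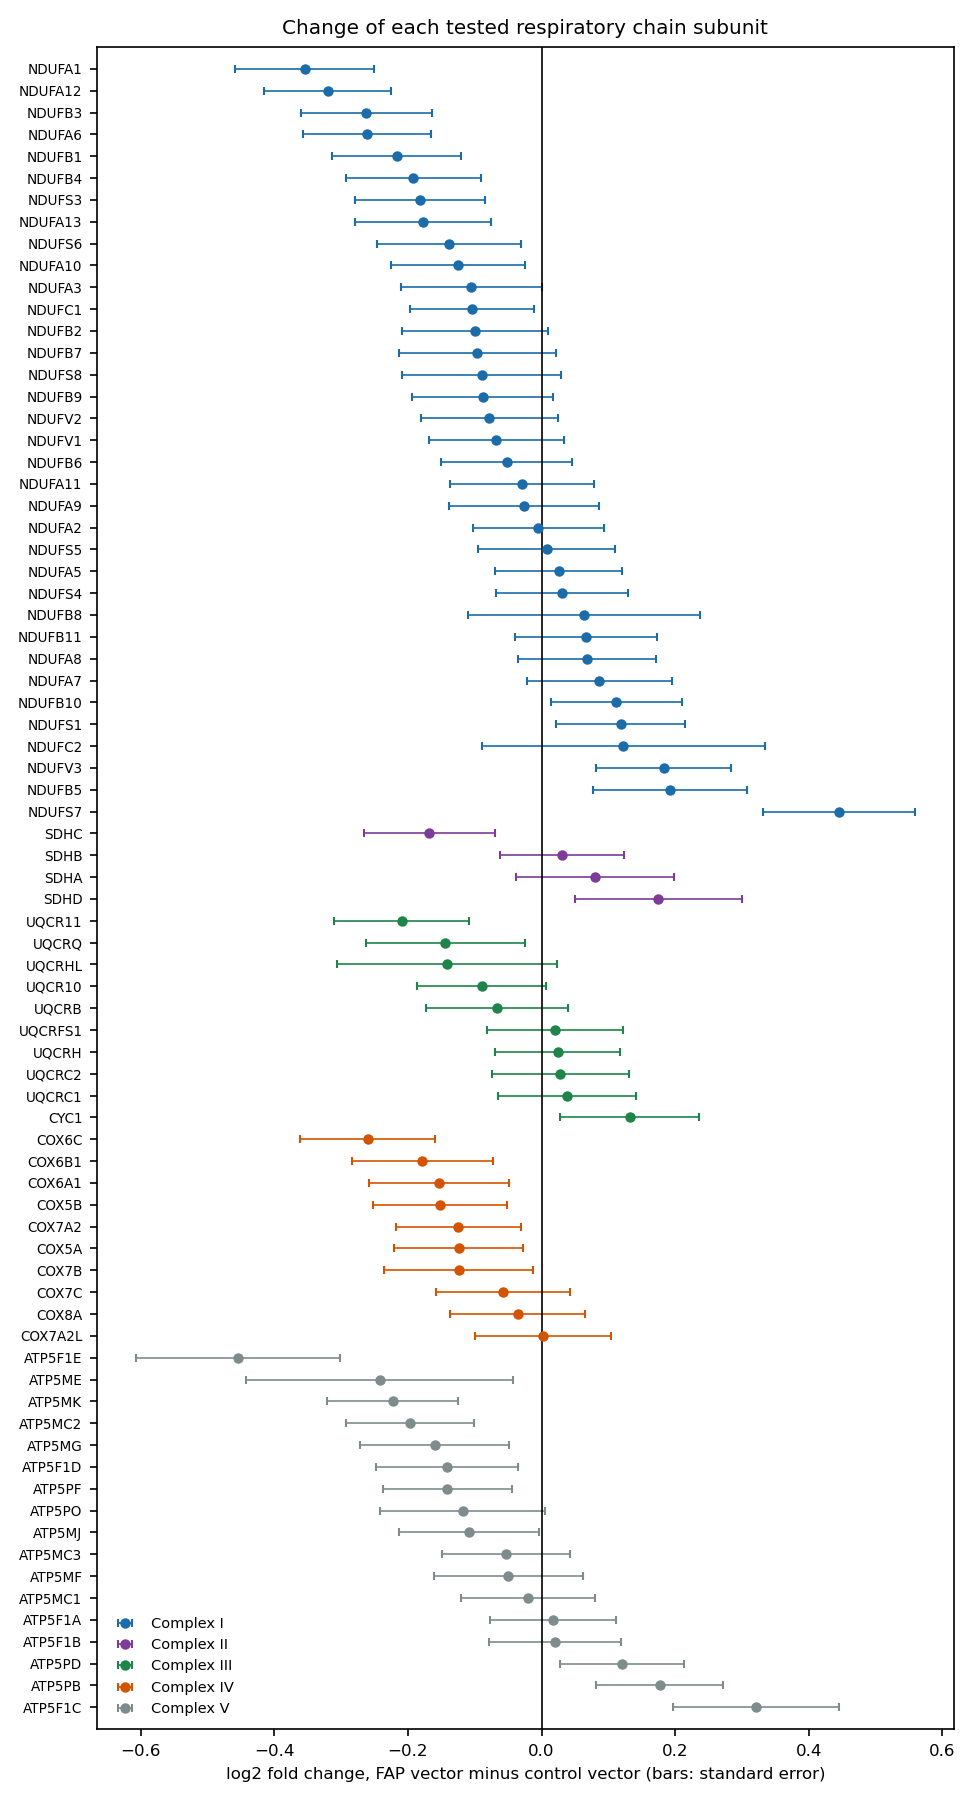
Log2 fold change, FAP vector minus control vector, of the tested subunit genes, ordered within each complex, with standard errors as bars; 1 complex I gene is not drawn. In complex IV 9 of 10 values are negative, in complex II 1 of 4, and the values of all members run from -0.45 to 0.44.

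Complex I holds a hydrophilic arm with the electron path, built of core and accessory subunits, and a membrane arm whose nuclear-encoded subunits are all accessory. The 7 core genes of the hydrophilic arm had a median log2 fold change of -0.07, with 5 negative. NDUFS7 (Entrez 374291, chromosome 19, 1383907 to 1395584), the subunit with the iron-sulfur cluster next to the ubiquinone site, stood at 79.5, 77.1 and 74.7 CPM in FAP libraries and at 63.9, 58.9 and 48.1 CPM in control libraries. All FAP libraries lay above all controls, and its log2 fold change of 0.44 (SE 0.11, adjusted p = 0.136) had the smallest p of any member. Over all alternatives its adjusted p ran from 0.0170 to 0.464. NDUFS1, the large subunit of the NADH-oxidising end, was at 91.8, 88.7 and 93.8 CPM in FAP libraries and at 84.4, 83.1 and 85.0 CPM in control libraries (0.12, SE 0.10, adjusted p = 0.724). NDUFS3, a core subunit of the same arm, had 120, 116 and 122 CPM in FAP libraries and 146, 136 and 126 CPM in control libraries (-0.18, SE 0.10, adjusted p = 0.552). Core members thus differed in sign. NDUFV1 and NDUFV2, which bind NADH and pass on its electrons, had log2 fold changes of -0.07 and -0.08, and NDUFS8, which holds iron-sulfur clusters of the electron path, had -0.09.

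The accessory subunits of complex I held the lowest values. NDUFA1 (Entrez 4694, chromosome X, 119871832 to 119876662), a small membrane subunit needed for assembly, was at 317, 264 and 298 CPM in FAP libraries and at 395, 391 and 338 CPM in control libraries. Its log2 fold change was -0.35 (SE 0.10, adjusted p = 0.223) and the groups did not overlap. NDUFA12 (Entrez 55967, chromosome 12, 94971333 to 95003697), which takes the place of the assembly factor NDUFAF2 in the finished complex, was at 111, 111 and 110 CPM in FAP libraries and at 142, 143 and 130 CPM in control libraries (-0.32, SE 0.10, adjusted p = 0.235). The FAP libraries were close to one another and all below the controls. NDUFA6, of the matrix arm, was at 221, 225 and 222 CPM in FAP libraries and 289, 264.5 and 248 CPM in control libraries (-0.26, SE 0.10, adjusted p = 0.358). NDUFB3, of the distal membrane arm, was at 131, 124 and 132 CPM in FAP libraries and 162, 161 and 141 CPM in control libraries (-0.26, SE 0.10, adjusted p = 0.369). NDUFB1 and NDUFC1, at -0.22 and -0.10, were the other accessory subunits whose FAP libraries all lay below the controls. NDUFV3, an accessory subunit of the NADH-binding end, lay on the other side, at 77.2, 71.0 and 77.5 CPM in FAP libraries and 63.8, 69.5 and 65.3 CPM in control libraries (0.18, SE 0.10, adjusted p = 0.567). By position in the complex the median was -0.00 over 9 accessory subunits of the matrix arm, -0.10 over 9 of the proximal membrane arm and -0.09 over 11 of the distal membrane arm, a grouping made after the values were seen. NDUFB9 and NDUFS6, the members of complex I with the highest mean CPM, had -0.09 and -0.14 (adjusted p = 0.821 and 0.71).

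Many respiratory chain genes are known to be activated by the transcription factor NRF1 and by GABP, a factor of the ETS family. The 250 bases before the annotated start (RefSeq, GRCh38.p14) were read for 67 of the 84 members and searched on both strands for TGCGCA, the core of the NRF1 site, and CCGGAA, the core of ETS sites. TGCGCA was found in 28.4% of the member promoters, 14.1% of the promoters of all tested genes and 8.28% of all promoters of the same length. CCGGAA was found in 40.3%, 30.1% and 17.2% of the same sets. Of the 11 members with a promoter in the table whose FAP libraries all lay below the controls, 3 held TGCGCA and 5 held CCGGAA, and of the 5 whose FAP libraries all lay above, 1 and 4 did. The sequences below belong to 4 members whose groups did not overlap, NDUFS7 above the controls and NDUFA1, NDUFA12 and ATP5MK below, and motif letters are in capitals.
NDUFS7, chr19:1383657-1383906, plus strand: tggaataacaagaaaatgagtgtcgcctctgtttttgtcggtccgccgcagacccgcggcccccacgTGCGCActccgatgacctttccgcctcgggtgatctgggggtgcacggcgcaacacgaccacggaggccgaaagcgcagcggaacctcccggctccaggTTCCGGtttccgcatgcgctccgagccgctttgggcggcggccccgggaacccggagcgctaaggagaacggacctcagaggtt
NDUFA1, chrX:119871582-119871831, plus strand: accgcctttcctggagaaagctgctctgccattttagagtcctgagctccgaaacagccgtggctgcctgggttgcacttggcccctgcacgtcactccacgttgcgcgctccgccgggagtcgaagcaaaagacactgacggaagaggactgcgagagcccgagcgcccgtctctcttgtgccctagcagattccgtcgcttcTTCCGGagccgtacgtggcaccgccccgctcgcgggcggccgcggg
NDUFA12, chr12:95003698-95003947, minus strand: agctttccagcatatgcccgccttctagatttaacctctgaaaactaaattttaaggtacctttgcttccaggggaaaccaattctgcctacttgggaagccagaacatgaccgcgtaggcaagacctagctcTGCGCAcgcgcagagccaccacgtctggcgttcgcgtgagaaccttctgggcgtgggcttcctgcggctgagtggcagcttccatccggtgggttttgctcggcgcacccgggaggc
ATP5MK, chr10:103396476-103396725, minus strand: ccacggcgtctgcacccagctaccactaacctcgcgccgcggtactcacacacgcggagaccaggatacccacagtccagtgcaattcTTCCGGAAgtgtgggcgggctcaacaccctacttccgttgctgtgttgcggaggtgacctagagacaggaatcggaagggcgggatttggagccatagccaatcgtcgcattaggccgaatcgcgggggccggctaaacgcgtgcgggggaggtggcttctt
NDUFS7 held 1 match to each motif, NDUFA1 only CCGGAA and NDUFA12 only TGCGCA. In ATP5MK 2 matches to CCGGAA on opposite strands overlap. A match of this kind is a description of the letters and no measurement of binding.

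Complex II, the succinate dehydrogenase shared with the citric acid cycle, had 3 positive values and 1 negative value. SDHA, the flavoprotein that oxidises succinate, was at 175, 169 and 131 CPM in FAP libraries and at 140, 172 and 136 CPM in control libraries (log2 fold change 0.08, SE 0.12, adjusted p = 0.862). SDHB, its iron-sulfur partner, stayed between 168 and 181 CPM in all 6 libraries (0.03, SE 0.09, adjusted p = 0.943). The membrane anchors went separate ways in sign. SDHC stood at 108, 98.9 and 97.0 CPM in FAP libraries and at 121, 112 and 109 CPM in control libraries, without overlap (-0.17, SE 0.10, adjusted p = 0.596). SDHD was at 61.3, 56.1 and 45.2 CPM in FAP libraries and at 41.8, 49.6 and 51.0 CPM in control libraries, with overlap (0.17, SE 0.13, adjusted p = 0.675).

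In complex III, the redox and core subunits lay at or above zero and the small accessory subunits mostly below it, with overlapping groups for all 10 genes. CYC1, cytochrome c1, was at 421.5, 347.5 and 340.5 CPM in FAP libraries and at 326, 351 and 335 CPM in control libraries (log2 fold change 0.13, SE 0.10, adjusted p = 0.71). Here FAP replicate 1 alone stood above all controls. UQCRFS1, the Rieske iron-sulfur protein, and the core proteins UQCRC1 and UQCRC2 had 0.02, 0.04 and 0.03. UQCR11, a small membrane subunit, was at 423, 413 and 477 CPM in FAP libraries and at 512, 531 and 475 CPM in control libraries (-0.21, SE 0.10, adjusted p = 0.505). UQCRQ, which lies next to cytochrome b, had -0.14 (SE 0.12, adjusted p = 0.729), and UQCRB had -0.07. UQCRBP1, a copy of UQCRB that is not protein-coding, was at 96.7, 70.6 and 46.8 CPM in FAP libraries and 98.1, 105.5 and 80.3 CPM in control libraries. It had -0.42 (SE 0.17, adjusted p = 0.416), and how reads matching both UQCRB and UQCRBP1 were assigned is not stated. UQCRHL is a near-identical copy of UQCRH, so its 13.5 to 18.5 CPM may include reads of UQCRH.

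Complex IV showed the lowest median, and its expressed nuclear subunits had close values. COX6C, a small membrane subunit, was at 259.5, 215.5 and 257.3 CPM in FAP libraries and at 300.6, 302.9 and 273.2 CPM in control libraries (log2 fold change -0.26, SE 0.10, adjusted p = 0.398). All FAP libraries lay below the controls, as they did for COX7A2, at 305, 291 and 288 CPM in FAP libraries and 331.3, 322.5 and 310.5 CPM in control libraries (-0.12, SE 0.09, adjusted p = 0.691). COX6B1, on the intermembrane side where cytochrome c docks, had 398, 345 and 316 CPM in FAP libraries and 386.7, 432.6 and 377.5 CPM in control libraries, with overlap (-0.18, SE 0.11, adjusted p = 0.601). COX5A, COX5B, COX6A1 and COX7B had -0.12, -0.15, -0.15 and -0.12. COX7C and COX8A, with the highest mean CPM in this complex, had -0.06 and -0.04. COX7A2L, named for its likeness to COX7A2 and known from work on supercomplex assembly, was at 0.00. The median of complex IV was negative in every alternative run, from -0.18 to -0.07, and 7 to 10 of its 10 genes had negative values.

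Tissue-restricted isoforms of complex IV were nearly or wholly without counts. COX6A2, the isoform of heart and skeletal muscle, COX7B2 and COX8C had 0 counts in all 6 libraries, which allows levels of up to 0.212 to 0.479 CPM in FAP libraries and 0.237 to 0.548 CPM in control libraries (3 counts per library, counting error only). COX7A1, another muscle isoform, had 0, 1 and 1 counts in FAP libraries and 1, 2 and 0 in control libraries. COX6B2, known from testis, had 1, 8 and 6 counts in FAP libraries and 0, 1 and 2 in control libraries, too few to be tested. The widely expressed COX6A1, COX6B1, COX7A2, COX7B and COX8A were each at 243 CPM or more in every library of both groups. COX4I1, the main COX4 isoform, falls outside the symbols used; it was at 981, 904 and 814 CPM in FAP libraries and 984, 1019 and 885 CPM in control libraries (log2 fold change -0.10, SE 0.11, adjusted p = 0.804). The gene once named NDUFA4 and now COXFA4, a complex I name for a subunit now placed in complex IV, had -0.10 (SE 0.11, adjusted p = 0.80).

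In complex V the catalytic subunits had values near zero and the outlying values belonged to its central stalk. ATP5F1B, the catalytic beta subunit, was at 643, 625 and 674 CPM in FAP libraries and at 644, 659 and 612 CPM in control libraries (log2 fold change 0.02, SE 0.10, adjusted p = 0.967). ATP5F1A, the alpha subunit, had 0.02 as well. ATP5F1C, the gamma subunit that turns inside the head, was at 150.5, 122 and 99.4 CPM in FAP libraries and at 92.4, 97.2 and 106 CPM in control libraries (0.32, SE 0.12, adjusted p = 0.396). FAP replicates 1 and 2 lay above all controls and FAP replicate 3 among them, and without that library the value was 0.46 (adjusted p = 0.00909). Without FAP replicate 1 it was 0.17 (adjusted p = 0.66). ATP5F1E, the epsilon subunit at the foot of the stalk (Entrez 514, chromosome 20, 59025475 to 59032335), was at 215, 219 and 378 CPM in FAP libraries and at 382, 365 and 368 CPM in control libraries. Its log2 fold change of -0.45 (SE 0.15, adjusted p = 0.32) was the lowest of any tested member. FAP replicates 1 and 2 lay far below every other library and FAP replicate 3 among the controls, and without FAP replicate 3 the value was -0.78 (adjusted p = 4.115e-07). Without FAP replicate 1 it was -0.31 (adjusted p = 0.481), and without FAP replicate 2 it was -0.32 (adjusted p = 0.645).

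ATP5F1E has a processed pseudogene, ATP5F1EP2, with reads of its own in the table. That copy was at 47.7, 35.0 and 24.2 CPM in FAP libraries and at 46.2, 48.8 and 141 CPM in control libraries, highest in control replicate 3. With both counted together the sums were 262, 254 and 402 CPM in FAP libraries and 428, 414 and 509 CPM in control libraries, a comparison chosen after the data were seen (log2 fold change -0.56, SE 0.14, adjusted p = 0.13). In the sum all FAP libraries lay below all controls, FAP replicate 3 by a small margin, and FAP replicate 3 still stood well above FAP replicates 1 and 2. The sources used here do not state how reads matching both copies were assigned.

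The remaining parts of complex V had small values. In the peripheral stalk, which holds the head still, ATP5PB was at 180, 165 and 167 CPM in FAP libraries and 152, 144 and 157 CPM in control libraries (log2 fold change 0.18, SE 0.10, adjusted p = 0.556), and ATP5PD had 0.12, both without overlap between groups. ATP5PF had -0.14, with all FAP libraries below the controls, and it overlaps GABPA (log2 fold change 0.22) in the annotation. The rotor ring is made of 1 protein encoded by 3 genes: ATP5MC1 had -0.02, ATP5MC2 -0.20 and ATP5MC3 -0.05. ATP5MC2 stood at 257, 265 and 286 CPM in FAP libraries and 320, 318 and 290 CPM in control libraries (SE 0.10, adjusted p = 0.51). ATP5MK, a small membrane subunit linked to dimers of the synthase, was at 209, 175 and 198 CPM in FAP libraries and at 215, 230 and 233 CPM in control libraries (-0.22, SE 0.10, adjusted p = 0.458). All 5 tested small membrane subunits had negative values, from -0.24 to -0.05. The readthrough gene ATP5MF-PTCD1 had no count, and ATP5MGL had at most 11.

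**Figure D3:**
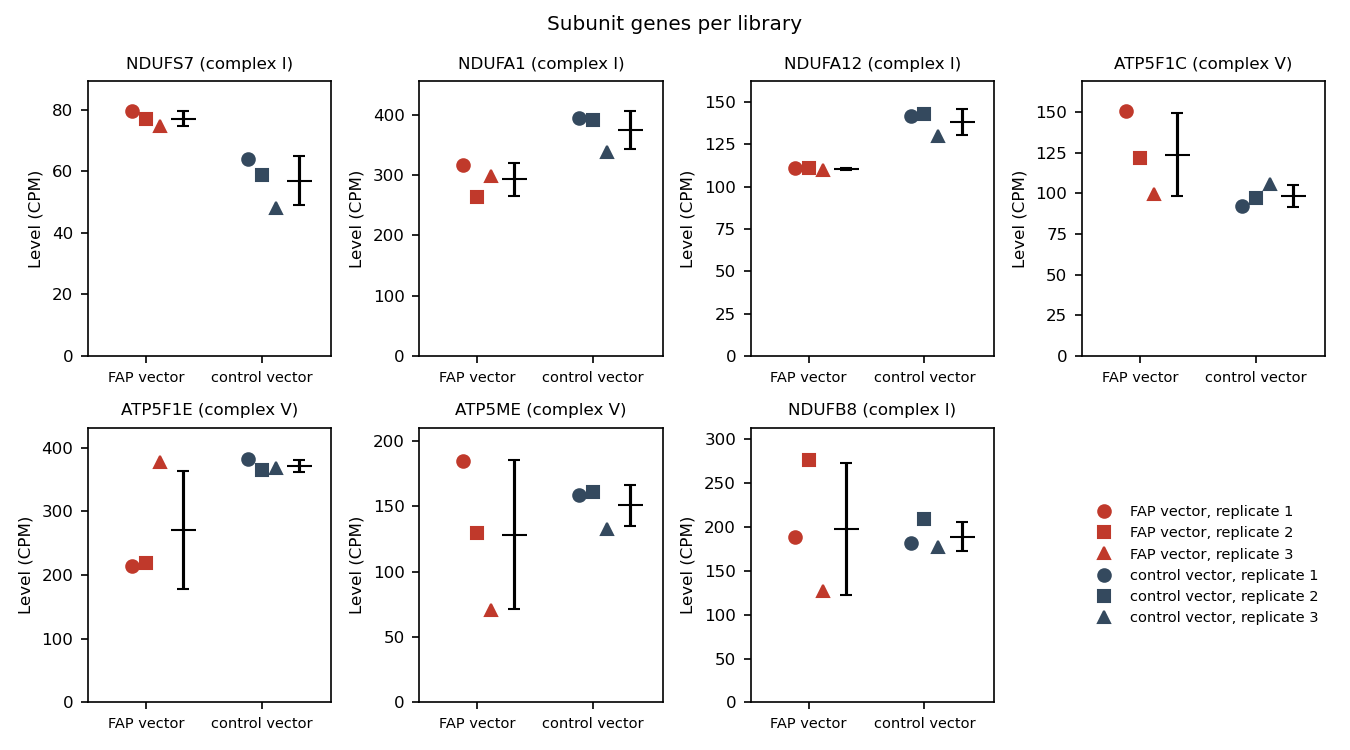
Level in CPM per library of 7 subunit genes, FAP vector left and control vector right. Symbols mark replicates, and the dash with bars gives mean ± SD of 3 libraries. NDUFA1 and NDUFA12 lie below and NDUFS7 above all controls, while for ATP5F1E FAP replicates 1 and 2 (215 and 219 CPM) lie below and FAP replicate 3 (378 CPM) lies among the controls.

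The FAP libraries differed among themselves more than the control libraries did, and most widely in a small set of members. Over the 77 tested members the median ratio of highest to lowest library was 1.17 in FAP libraries and 1.11 in control libraries. FAP replicate 3 stood apart over the whole table, as given above. The share of all tested genes beyond the 1.5-fold limit used next was not counted. The highest FAP library exceeded the lowest by more than 1.5-fold in 6 of the 77 members and in 0 of the members for control libraries, where the widest ratio was 1.36. NDUFC2, a membrane arm subunit, was at 77.4, 52.8 and 28.3 CPM in FAP libraries and at 46.9, 48.5 and 47.2 CPM in control libraries. ATP5ME, of the ATP synthase membrane part, was at 184, 130 and 70.9 CPM in FAP libraries and at 158, 161 and 132.5 CPM in control libraries. NDUFB8, also of the membrane arm, was at 189, 277 and 127 CPM in FAP libraries and at 182, 209 and 177 CPM in control libraries. In each of these 3 genes FAP replicate 3 lay below every control and another FAP library above every control, and the fitted log2 fold changes were 0.12, -0.24 and 0.06 (SE 0.21, 0.20 and 0.17). The others were ATP5F1E, ATP5PO and ATP5F1C. FAP replicate 3 was the lowest of the FAP libraries in 42 members and the highest in 20. FAP replicate 1 was the highest of them in 50 members. Control libraries also shifted across many members, with control replicate 3 the lowest control in 52. The genes named in this paragraph were picked after their values were seen.

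**Figure D4:**
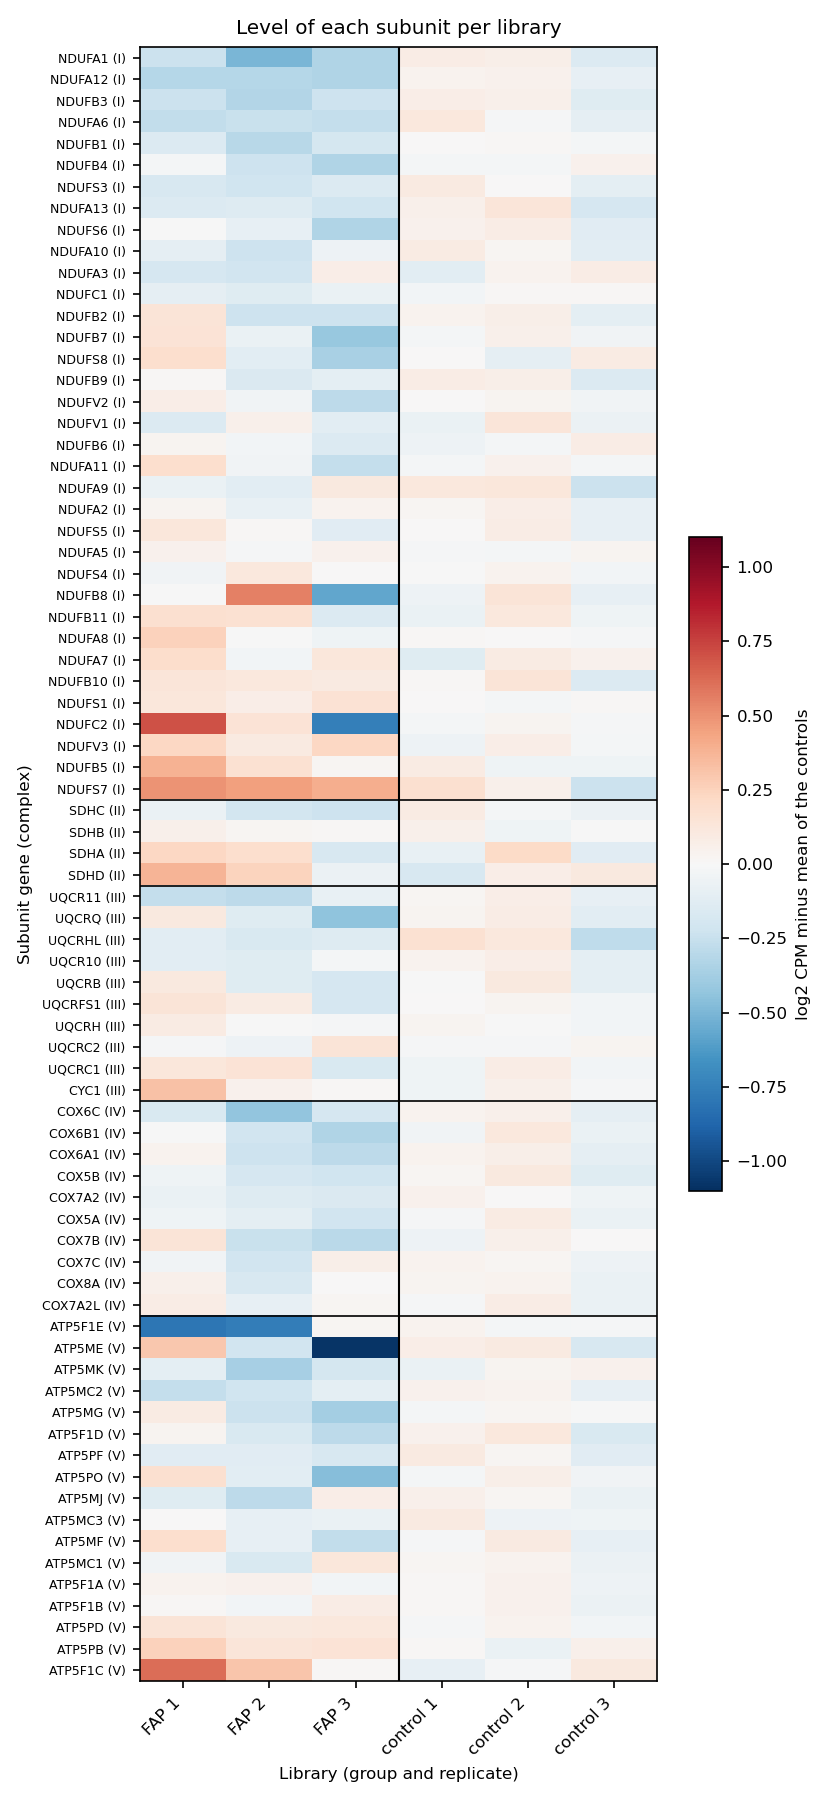
Level of the tested subunit genes, 1 complex I gene not drawn, in every library as log2 CPM minus the mean of the 3 control libraries, FAP libraries left. Rows are ordered by complex and within it by log2 fold change. The 6 genes whose FAP libraries span more than 1.5-fold, such as NDUFC2, NDUFB8, ATP5ME and ATP5F1E, vary less among the control libraries.

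Subunit transcripts are short, and shorter transcripts had lower values in the whole table. The longest annotated transcript (GENCODE 29) had a median length of 1439 bases among the 77 members and 3595 bases among all tested genes. Across genes, which are not independent replicates, the log2 fold change had a Spearman correlation with length of 0.28 over the 77 members and 0.13 over 13145 genes. The 39 members of at most 1500 bases had a median of -0.11 (28 negative), and all 1333 tested genes of that length had -0.07. The 38 longer members had a median of -0.04 (22 negative), and 11812 longer genes had 0.01. Parts of a complex differed in median length as well. It was 2300 bases over the redox and core genes of complex III, 1120 over its small accessory genes and 882 over the tested small membrane subunits of complex V. The part of length in the members' values was not tested beyond the correction given above. Cytosolic ribosomal proteins had a median log2 fold change of -0.08 (61 of 79 negative), and the median length of their longest transcripts was 1826 bases. They took 14.8%, 13.3% and 12.2% of counts in FAP libraries and 13.6%, 14.2% and 13.1% in control libraries.

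**Figure D5:**
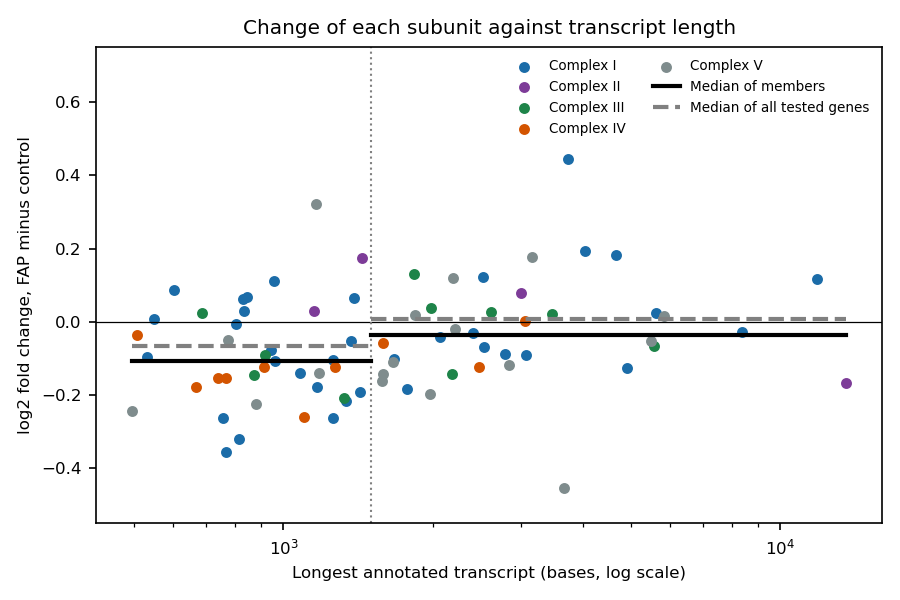
Log2 fold change of the 77 tested subunit genes against the length of their longest annotated transcript in bases, on a log axis. Solid lines give the median of members and dashed lines that of all tested genes, at or under and over 1500 bases. Members at or under that length have a median of -0.11 and all such genes -0.07.

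Other genes of the pathway held no called member either. Of 17 complex I assembly factors 0 were called and 11 were negative, with NDUFAF5 at -0.29 and FOXRED1 at 0.29 (adjusted p = 0.436 and 0.49). Of 24 complex IV assembly factors tested 16 were negative, with COX11, a copper chaperone, at 0.34 (adjusted p = 0.482). PET100, needed to build the complex, was at 129, 130 and 142 CPM in FAP libraries and 158.5, 187 and 161 CPM in control libraries, without overlap (log2 fold change -0.34, SE 0.10, adjusted p = 0.235). The 4 complex II factors had a median of 0.22, with SDHAF3 at 0.57 and SDHAF2 at -0.15 (adjusted p = 0.383 and 0.691). LYRM7 and UQCC1, of complex III, had 0.23 and 0.12, and ATPAF2 and ATPAF1, of complex V, had -0.42 and -0.06 (smallest adjusted p = 0.527). Of 14 citric acid cycle genes 10 were negative, with OGDH, of the 2-oxoglutarate dehydrogenase complex, at 0.39 and SUCLG1, of succinate-CoA ligase, at -0.20 (adjusted p = 0.294 and 0.487).

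Regulators of respiratory genes and mitochondrial DNA had positive values in 12 of 17, where 49.3% of all tested genes were negative. Several of these values were close to zero, and the median was 0.02, against 0.00 over all tested genes. YY1, a transcription factor that binds many such promoters, was at 124.5, 116.4 and 122.9 CPM in FAP libraries and at 112, 101 and 102 CPM in control libraries (log2 fold change 0.21, SE 0.10, adjusted p = 0.469). PPARGC1A, the coactivator PGC-1alpha, was low, at 1.596, 0.988 and 0.963 CPM in FAP libraries and 1.83, 2.29 and 2.45 CPM in control libraries (-0.97, SE 0.45, adjusted p = 0.475). Both were without overlap between groups, and neither was called. Among genes outside the symbols used, COXFA4L3 had -0.70 (SE 0.34, adjusted p = 0.512). Its level was low, at 2.39, 2.54 and 2.37 CPM in FAP libraries and 5.66, 3.17 and 3.48 CPM in control libraries. The 13 protein-coding genes of mitochondrial DNA are listed at 0 in every library, so the nuclear subunits cannot be set against their mitochondrial partners here.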

How the data were processed

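The authors deposited whole-number read counts per Entrez gene ID for 6 libraries, not normalized. Per the submitters' processing notes HISAT2, featureCounts, Subread and GRCh38 were used. The sources used here name no tool version and no setting for strand, multiply aligned reads or molecular identifiers. Without a strand setting, reads of overlapping genes cannot be told apart, which concerns 18 tested members.

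Of 28395 IDs, 27745 matched a symbol in RefSeq's table (GRCh38.p14), which also gave coordinates. The counts were fitted in R 4.3.3 with edgeR 4.0.16, using TMM, filterByExpr (minimum count 10, minimum total 15), no covariate, and the quasi-likelihood F test (two-sided) of FAP minus control, with Benjamini-Hochberg adjustment over 13373 genes. The common biological coefficient of variation was 11.8%. The standard error is the size of the log2 fold change over the square root of F. Every adjusted p is from edgeR unless another tool is named. Alternatives used DESeq2 1.42.0, limma 3.58.1 (voom), other scalings and filters, a length and GC correction (mgcv 1.9.3; lengths for 98.3% of tested genes), a block for the replicate number, and leaving out single libraries. The test was also tried on simulated data, and no statement here rests on that trial. No replicate pair agreed within sampling noise.

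Members, lists and groupings were chosen with earlier results of these data known, so list counts and medians are descriptions without a test. Named genes were FAP, the core catalytic subunits, in each complex the 2 with the highest mean CPM and the 2 with the smallest p in each direction, isoform sets, and the 2 with the smallest p in each other list. Others named were chosen after their values were seen. Figures were drawn with matplotlib 3.10.9. One complex I gene entered every fit, count and median but is not reported here by itself.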

Additional observations from a re-analysis of the deposited data

How the results depend on the processing

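Over all genes, 13 were called higher and 17 lower in FAP libraries. DESeq2 called 29 higher and 53 lower, no low-count filter gave 54 higher and 98 lower, limma-voom called 7 higher, library totals 6 lower and the replicate block 28 lower. Leaving out 1 library at a time gave 1 to 109 higher and 2 to 139 lower, the highest counts without FAP replicate 3. Called members numbered 0, against 2 with no low-count filter and 0 to 4 with 1 library left out, the 4 again without FAP replicate 3. The median of complex V, -0.11, ran from -0.145 to -0.034 with 1 library left out, the value nearest 0 being without FAP replicate 2, and was -0.043 without FAP replicate 3. Members whose FAP libraries all lay below the controls numbered 13, against 7 with the length and GC correction (all genes 7.99% and 7.92%), and those above numbered 5, against 10 with that correction and 11 with library totals (all genes 7.96%, 7.75% and 11.1%). The cause was not tested. With 1 library left out the median ran from -0.10 to -0.04 over all members, -0.10 to -0.02 in complex I and 0.01 to 0.12 in complex II, each lowest without FAP replicate 1 and highest without FAP replicate 3. It ran from -0.06 without control replicate 3 to 0.01 without control replicate 2 in complex III, and from -0.18 to -0.09 in complex IV. These shifts, and those of the summed levels, were smaller than the spread between replicates, except in complex V. Its median moved by more than its spread of 0.064 when FAP replicate 2 was left out, and by slightly more than it when FAP replicate 3 was.

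Over all tested genes, same-numbered libraries had correlations of deviations of -0.0039, 0.0203 and -0.0041. Libraries with different numbers had -0.0185 to 0.0188. Values near 0 over all genes cannot exclude a pairing that touches part of the genes. With the replicate block 44 genes were called, against 30 without it, and no member was called (smallest adjusted p = 0.0945). Members of at least 100 CPM were also taken alone, an alternative chosen after the data were seen and whose outcome is not reported here. Intervals for counts of 0 cover counting error only.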
